A study of Mus musculus with 8 samples.

Results

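The mitochondrial ribosomal protein genes, the nuclear genes named Mrpl or Mrps followed by a digit, were followed in heart RNA from male C57BL6 mice. The array carried 78 of these genes, of 19987 gene symbols in all, on 99 probes, and 77 of them lay well above background on all 8 arrays and were analysed. Members were chosen by name, and the 1 that failed this filter on measured signal was left out. The 4 control samples came from mice that carry Cre recombinase without a floxed Igf1r gene, and the 4 double-transgenic (dtg) samples from merCremer/+ IGFloxP/IGFloxP mice, in which a tamoxifen-dependent Cre can cut Igf1r, the receptor for insulin-like growth factor 1. Both groups received 4OH-tamoxifen at an age of 8 months, 500 µg in 100 µl of peanut oil on 10 days in a row, a treatment aimed at exon 3 of Igf1r. Hearts were taken 6 weeks later, so Cre and tamoxifen were common to all samples. The labels name neither the promoter that drives merCremer nor the chambers taken, and they do not say that each sample is a separate animal, so the spread behind each p-value is that of these samples and can be technical. In whole heart tissue, fewer cells of a type and less RNA per cell cannot be told apart.

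Mitochondrial ribosomes translate the few proteins encoded in mitochondrial DNA, all of them core subunits of the oxidative phosphorylation complexes. Their RNA is made in the mitochondrion, but every one of their proteins is encoded in the nucleus, translated in the cytosol and imported. Many of these proteins have counterparts in bacterial ribosomes, while others were added during the evolution of mitochondria. The heart depends on oxidative phosphorylation, and inherited defects of several of these genes cause cardiomyopathy.

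Each value is a log2 signal minus the array's own 75th percentile, so 0 is a signal equal to that percentile and a difference of 1 is 2-fold. Between 59.1% and 71.5% of 39429 probes lay well above background on an array, and Pearson's r between arrays over all kept features was 0.973 to 0.995. Igf1r read 0.064, 0.096, 0.26 and 0.92 in controls 1 to 4 and -0.41, -0.32, 0.060 and 0.30 in dtg 1 to 4, a difference of -0.43 (SE 0.24) with overlapping groups, for which limma gave an adjusted p of 1. Whether its probe lies in exon 3 was not examined here, so it is a weak check of the labels. Genes listed as ventricular muscle markers were all measured, 10 of 10, though some, such as Myh6 and Tnnt2, are not confined to ventricles. Their summed signal lay between 2847 and 3091 times the 75th percentile in controls and 2832 and 3105 in dtg hearts. Atrial markers, 7 of 7 measured, summed to 254.3, 56.6, 467.2 and 628.8 in controls 1 to 4 and to 242.5, 66.2, 71.7 and 490.0 in dtg 1 to 4. The dtg hearts had the higher mean for 1 of these 7 (median log2 difference -0.62) and for 6 of the 10 ventricular markers (0.016). They had it for 5 of 5 erythroid markers measured (median 0.44), 2 of 8 fibroblast (-0.034), 2 of 8 endothelial (-0.078), 1 of 6 smooth muscle (-0.14), 2 of 7 leukocyte (-0.10), 1 of 6 adipocyte (-0.17) and 1 of 3 skeletal muscle markers (-0.19). No marker passed limma's test, and the part of these cell types in the members' values was not tested. The arrays lay on 2 slides, scanned separately, with controls 1 and 2 and dtg 1 and 4 on slide 1 and controls 3 and 4 and dtg 2 and 3 on slide 2.

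The members' probes were bright. Mean log2 levels ran from -0.62 for Mrpl35 to 6.01 for Mrpl51, with a median of 3.44 against -1.07 for all 21434 features kept, and 75 of 77 lay above the 75th percentile, the others being Mrpl35 and Mrpl1. Levels of different probes also reflect the probes themselves, so no order among members is drawn from them. Mrpl21, a large-subunit protein, was the member left out. It was well above background on 1 array, that of dtg 4, and read -4.68 there and between -7.61 and -5.55 on the other 7. A rule of 4 arrays was used, and no member lay between 2 and 7 arrays.

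Promoter windows of 300 bases, 250 before and 50 after an annotated start, were found in RefSeq (GRCm38.p6) for 69 of the 78 members, 75 windows in all. A set of 3 short motifs of factors known for regulating nuclear genes of mitochondrial proteins were searched on both strands. The letters of the NRF1 motif (GCGCA, then any base, then GCGC) occurred in 17.3% of members' windows, in 6.34% of 21188 windows of other protein-coding genes and in 4.603% of all 32851 windows. Those of the ETS motif bound by the GABP family, CCGGAAG, occurred in 34.7% of members' windows against 11.5% and 8.86%. Those of the YY1 motif, AAGATGGC, occurred in 16% against 3.01% and 2.75%. None of these letter strings contains another. At least 1 of them was in 57.3% of members' windows, 18.8% of other coding windows and 14.7% of all windows. A match to letters is a description and not a binding site.

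**Figure D1:**
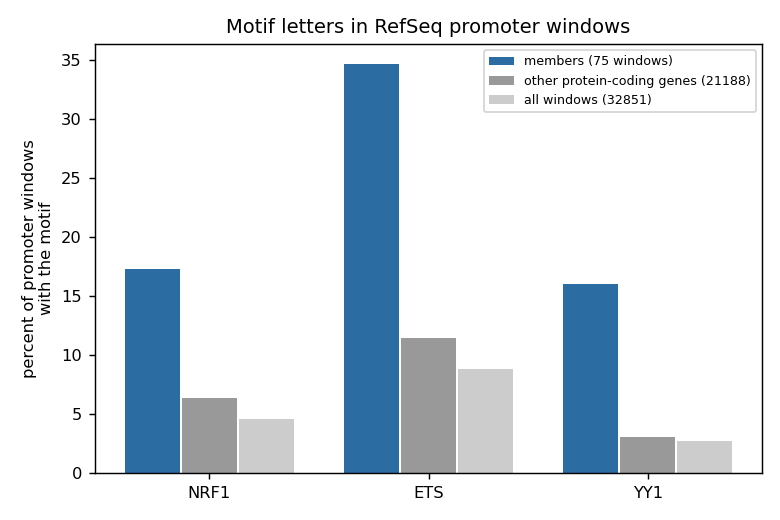
Percent of 300-base RefSeq promoter windows (vertical axis) that hold the letters of each motif (horizontal axis) on either strand. Blue bars are the 75 windows of the members, dark grey bars windows of other protein-coding genes and light grey bars all windows. The ETS letters are in 34.7% of the members' windows.

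The promoters of 4 members described further on are shown, chosen after their values were seen to set promoters with and without these letters beside each other. Each runs 5′ to 3′ up to the base before the start, cut short where a gene on the other strand starts first, with ETS matches in capitals. Mrps2 (chr2:28467816-28468065, plus strand), the member with the largest difference upward, and Mrpl46 (chr7:78783090-78783130, minus strand) hold none of the 3 motifs in the stretch shown. Mrps18a (chr17:46110754-46111003, plus strand) holds 1 ETS match, which begins 26 bases before the start, and Mrpl43 (chr19:45006443-45006557, minus strand) holds 2, which begin 56 and 12 bases before it. The full window of Mrps18a also held the YY1 letters, outside the stretch shown.
Mrps2: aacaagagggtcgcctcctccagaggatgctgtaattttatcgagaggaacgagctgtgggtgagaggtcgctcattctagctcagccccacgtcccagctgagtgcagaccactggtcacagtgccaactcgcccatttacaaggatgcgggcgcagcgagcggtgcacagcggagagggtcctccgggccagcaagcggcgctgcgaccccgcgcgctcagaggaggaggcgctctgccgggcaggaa
Mrps18a: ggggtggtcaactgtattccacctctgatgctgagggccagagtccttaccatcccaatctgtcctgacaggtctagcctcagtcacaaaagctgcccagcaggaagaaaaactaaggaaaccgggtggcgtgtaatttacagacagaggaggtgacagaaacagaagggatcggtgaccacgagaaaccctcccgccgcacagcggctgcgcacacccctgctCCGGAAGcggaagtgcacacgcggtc
Mrpl43: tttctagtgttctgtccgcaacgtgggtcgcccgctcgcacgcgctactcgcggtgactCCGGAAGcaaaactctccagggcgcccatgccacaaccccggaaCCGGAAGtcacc
Mrpl46: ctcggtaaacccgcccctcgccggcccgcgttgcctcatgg
The Mrpl43 stretch ends at the start of Twnk, the mitochondrial DNA helicase, 116 bases away on the other strand. The Mrpl46 stretch is the whole space between its start and that of another member, Mrps11, 42 bases away. Of the 69 members, 26 (37.7%) had a gene starting in the opposite direction within 1000 bases, compared with 13.04% of 17423 other protein-coding genes. Other partners included Sars2, the mitochondrial seryl-tRNA synthetase, beside Mrps12, and Ndufb5, a complex I subunit, beside Mrpl47. The 25 tested members with an ETS match had a median dtg difference of 0.0041, and the 43 without one -0.0056. For NRF1 the medians were 0.0041 with a match (13 members) and 0.0012 without (55), and for YY1 0.0031 (12) and 0.0012 (56). These medians are descriptions, and the motif groups were not tested against each other. The neighbours Mrpl46 and Mrps11 differed in opposite directions, by -0.085 and 0.098, and neither passed the test.

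The first comparison asked whether these genes differ between dtg and control hearts. None of the 77 members passed limma's test at an adjusted p of 0.05, and of all 21434 features 0 did (0%). At an unadjusted p of 0.05, 0 of 77 passed, against 163 features in all (0.76%), and in 0 of 77 were the 4 dtg and 4 control values separate without overlap, against 117 of 21406 features (0.547%). Levels were higher in dtg hearts for 42 members and lower for 35, while 57.4% of all features were higher. The median difference was 0.0017 for members and 0.021 for all features. Single differences ran from -0.13 for Mrpl37 to 0.14 for Mrps2, at most 1.10-fold, and 72 of 77 were under 0.1 in size. The adjusted p was 1 for each member after rounding.

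The median standard error was 0.12 for members and 0.18 for all features, and the median 95% interval of a member reached 0.27 to either side. Every one of the 77 intervals held 0, and with 75th percentile scaling 76 lay wholly within 0.5 of it, a 1.41-fold change. The exception was Mrpl37, a mitochondria-specific protein of the large subunit, with an interval of -0.57 to 0.31. With quantile normalization 76 intervals also lay within 0.5, but with scaling by array medians 9 did, where the median standard error was 0.22, and with normexp background correction 0 did. Within slide 1 alone 45 lay there and within slide 2 alone 0. Differences inside these intervals were not detectable with 4 samples a group.

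**Figure D2:**
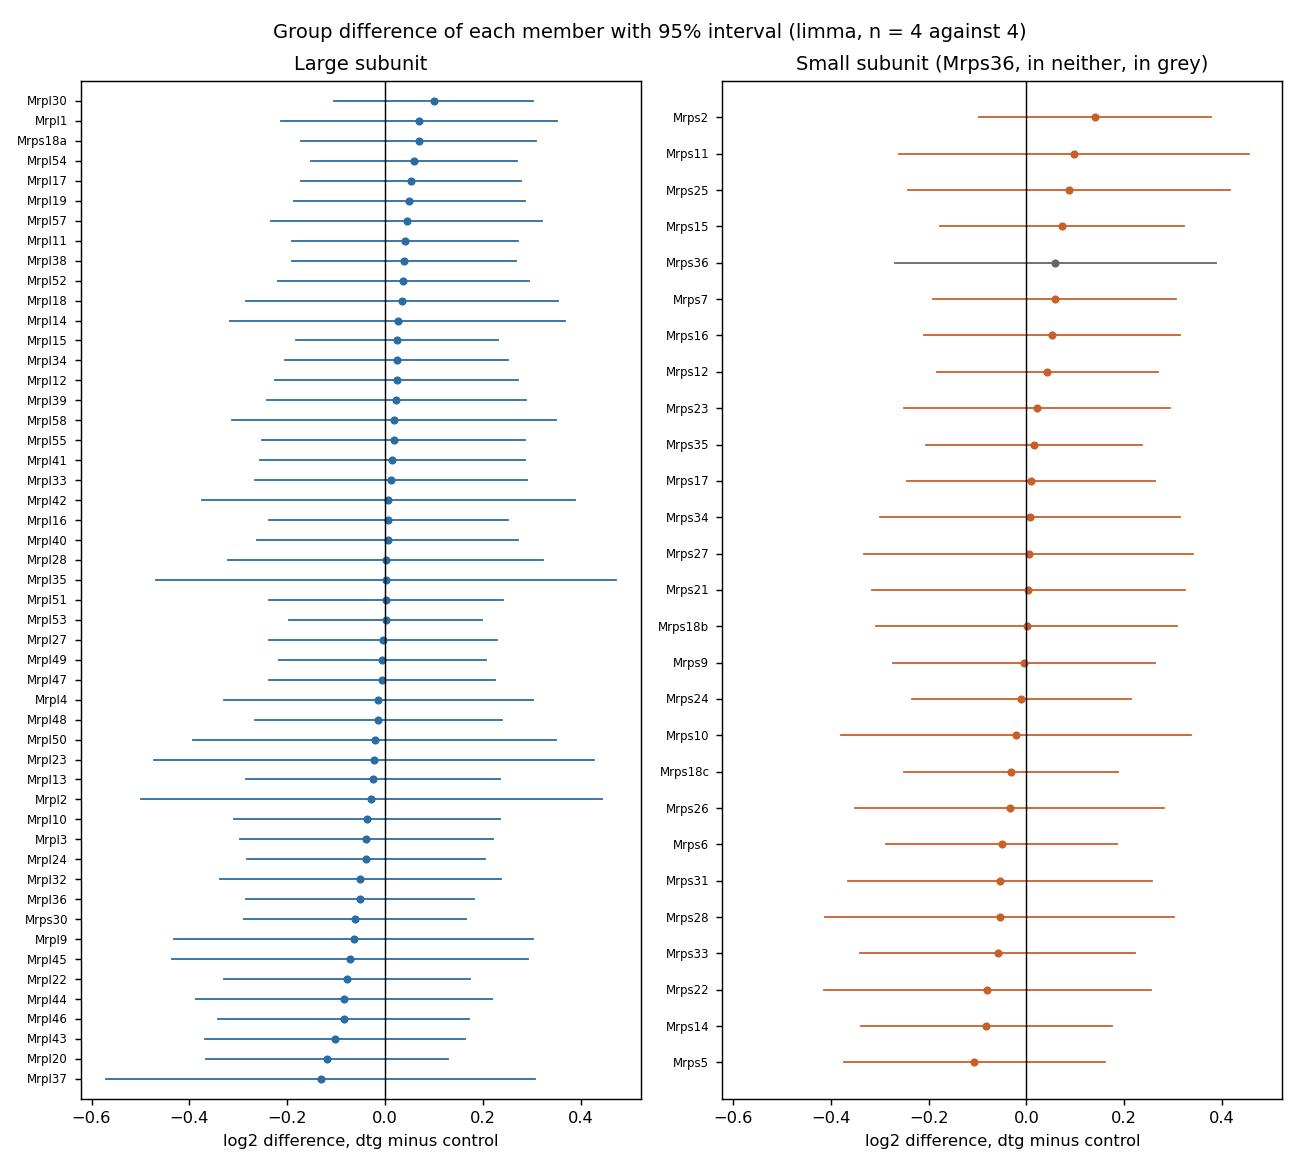
Log2 difference between dtg and control hearts (horizontal axis) of each of the 77 members (rows), with points for the fitted difference and lines for its 95% interval from limma (n = 4 against 4). Large-subunit proteins are on the left and small-subunit proteins on the right, and every line crosses 0.

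Among members with the smallest unadjusted p, Mrps2, a small-subunit core protein with a bacterial counterpart, read 1.21, 1.19, 1.18 and 1.06 in controls 1 to 4 and 1.21, 1.26, 1.49 and 1.25 in dtg 1 to 4. Dtg 3 was the highest heart and control 4 the lowest, and the groups overlapped. The means were 1.16 ± 0.067 in controls and 1.30 ± 0.13 in dtg hearts (SD, n = 4 each), a difference of 0.14 (SE 0.10, 95% interval -0.096 to 0.38). A second probe of Mrps2 gave -0.067, so the direction depended on the probe. Mrpl30, a large-subunit protein, read 4.79, 4.88, 4.81 and 4.75 in controls 1 to 4 and 4.87, 4.86, 4.97 and 4.93 in dtg 1 to 4, and only control 2 reached into the dtg range. Its difference was 0.10 (SE 0.089, 95% interval -0.10 to 0.30). Mrps15, which binds the small-subunit RNA, read 2.85, 2.84, 2.86 and 2.57 in controls 1 to 4 and 2.86, 2.96, 2.81 and 2.79 in dtg 1 to 4. Control 4 stood below the other 7 hearts, and the difference of 0.073 (SE 0.11, 95% interval -0.18 to 0.32) split into -0.025 within slide 1 and 0.17 within slide 2. Mrps18a read 3.78, 3.84, 3.83 and 3.68 in controls 1 to 4 and 3.84, 3.84, 4.02 and 3.71 in dtg 1 to 4, with dtg 3 highest and control 4 lowest, a difference of 0.069 (SE 0.10, 95% interval -0.17 to 0.31). Mrpl54, a mitochondria-specific protein, read 3.59, 3.62, 3.48 and 3.56 in controls 1 to 4 and 3.54, 3.601, 3.64 and 3.70 in dtg 1 to 4, a difference of 0.059 (SE 0.091, 95% interval -0.15 to 0.27). None of these 5 passed the test.

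In the other direction, Mrpl20, a large-subunit core protein, read 4.18, 4.38, 4.205 and 4.48 in controls 1 to 4 and 4.12, 4.15, 4.25 and 4.25 in dtg 1 to 4. Controls 2 and 4 were above every dtg heart and controls 1 and 3 among them, and the difference was -0.12 (SE 0.11, 95% interval -0.37 to 0.13). Mrps5, a small-subunit protein that bears on the accuracy of decoding, read 0.22, 0.078, 0.12 and 0.10 in controls 1 to 4 and 0.15, 0.17, -0.0071 and -0.21 in dtg 1 to 4. Dtg 3 and dtg 4 were the lowest hearts while dtg 1 and 2 lay among the controls, a difference of -0.11 (SE 0.12, 95% interval -0.37 to 0.16). Mrpl43 read 4.06, 4.21, 3.94 and 4.33 in controls 1 to 4 and 4.05, 4.12, 3.95 and 4.02 in dtg 1 to 4, with controls 2 and 4 highest. Its difference was -0.10 (SE 0.12, 95% interval -0.37 to 0.16), and its second probe gave 0.059. Mrpl46, another mitochondria-specific large-subunit protein, read 1.93, 2.05, 2.08 and 2.26 in controls 1 to 4 and 2.06, 1.89, 2.10 and 1.93 in dtg 1 to 4, with control 4 highest, a difference of -0.085 (SE 0.11, 95% interval -0.34 to 0.17). Slide by slide it was 0.0064 within slide 1 and -0.18 within slide 2. None of these 4 passed the test either.

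A group of 4 members is known for inherited cardiomyopathy in people. Mrps14 read 2.08, 2.10, 2.12 and 2.09 in controls 1 to 4 and 1.97, 2.15, 1.80 and 2.15 in dtg 1 to 4. The controls lay close together while dtg 1 and dtg 3 were lower and dtg 2 and dtg 4 higher than each of them, a difference of -0.082 (SE 0.11, 95% interval -0.34 to 0.17). Mrpl44, which resembles an RNase III, read 2.22, 2.31, 2.44 and 2.43 in controls 1 to 4 and 2.21, 2.505, 2.01 and 2.35 in dtg 1 to 4, a difference of -0.084 (SE 0.13, 95% interval -0.39 to 0.22) in which dtg 3 was lowest and dtg 2 highest. Mrps22 read 1.06, 1.23, 1.39 and 1.67 in controls 1 to 4 and 1.20, 1.35, 1.15 and 1.32 in dtg 1 to 4, a difference of -0.08 (SE 0.15, 95% interval -0.41 to 0.25), and Mrpl3 differed by -0.039 (SE 0.11, 95% interval -0.30 to 0.22). All 4 were lower on average in the fit over all hearts, and none passed the test. The count depended on the setting. Without control 4, or without dtg 3, 2 of the 4 were lower, with array weights 3 were, and with normexp 0 were. The second probe of Mrps14 gave 0.050. Within slide 1, dtg hearts had the higher mean for 3 of the 4 (median difference 0.037), and within slide 2 for 0 of the 4 (median -0.16).

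Mammals have 3 paralogs of bacterial protein S18, 1 of which, Mrps18a, sits in the large subunit. Mrps18b read 3.51, 3.63, 3.62 and 3.98 in controls 1 to 4 and 3.61, 3.83, 3.55 and 3.76 in dtg 1 to 4, with control 4 highest and control 1 lowest, and differed by 0.0012 between groups. Mrps18c read 2.58, 2.76, 2.64 and 2.77 in controls 1 to 4 and 2.62, 2.61, 2.71 and 2.68 in dtg 1 to 4 and differed by -0.032. The 95% intervals were -0.17 to 0.31 for Mrps18a, -0.31 to 0.31 for Mrps18b and -0.25 to 0.19 for Mrps18c.

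By role, 14 of 26 small-subunit members were higher in dtg hearts (median difference 0.0026) and 27 of 50 large-subunit members (median 0.0015). Mrps36, which was named as a ribosomal protein but belongs to the 2-oxoglutarate dehydrogenase complex, was counted in neither and differed by 0.059. Of 45 members counted here as having a bacterial counterpart 23 were higher (median 0.0012), and of 31 counted as having none 18 were (median 0.0046). Mrps18b and Mrps18c were counted with a counterpart and Mrps18a without one. The counts of higher members depended on scaling. Quantile normalization made 30 of 77 members higher, with a median of -0.0076 against -0.012 for all features. Scaling by array medians made 4 of 77 higher, with a median of -0.083, against -0.065 for all features.

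Other genes of mitochondrial translation were taken from lists of known components, and 0 of each list passed the test between groups. Of 5 mitoribosome proteins that carry other names, 2 were higher (median -0.011), led by Gadd45gip1 at 0.13 and Ptcd3 at 0.11. Of 16 mitochondrial translation factors 7 were higher (median -0.0042). Mtif2, the initiation factor, differed by 0.16 and Mtrf1, a release factor relative, by 0.17. Of 23 assembly and rRNA modification genes 11 were higher (median -0.017), with Mtg1 at -0.12 and Ybey at 0.10. Of 16 mitochondrial aminoacyl-tRNA synthetases 9 were higher (median 0.0099), with Wars2 at 0.25 and Mars2 at 0.13. Of 11 regulators of mitochondrial gene expression 9 were higher, with a median of 0.10 against 0.021 for all features. Under quantile normalization 7 were higher (median 0.0996, all features -0.012), and under median scaling 6 were (median 0.015, all features -0.065). Those with the smallest unadjusted p were Myc at 0.20 (SE 0.11) and Gabpb1, a subunit of the GABP factor, at 0.12 (SE 0.090). The cytosolic ribosomal proteins (67 of 94 higher, median 0.029) and nuclear subunits of oxidative phosphorylation (49 of 83, median 0.011) also had 0 genes past limma's test. Rps15 of the first list differed by 0.22 (SE 0.094) without overlap between groups, and Rpl39l, a dim probe, by -1.12 (SE 0.61). At an unadjusted p of 0.05, 1 gene of these lists passed, Cox7b2, a cytochrome oxidase subunit isoform, at 0.69 (SE 0.20). Its probe was also dim, with means of -4.91 in controls and -4.21 in dtg hearts, against a median level of 6.75 for its list. Its groups overlapped. Ndufa1, a complex I subunit, differed by -0.14 (SE 0.12). Under quantile normalization the cytosolic list had 46 of 94 higher and the oxidative phosphorylation list 29 of 83.

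Slides divided the arrays more strongly than genotype. Between slide 2 and slide 1, fitted beside the group, 0 of 77 members passed limma's test at an adjusted p of 0.05, whereas 2210 of all 21434 features did (10.3%). Most of those features had a mean at or below the 75th percentile. Of the 8315 features with a mean above the 75th percentile, where 75 of the 77 members lie, 143 passed (1.72%). At an unadjusted p of 0.05, 2 members passed against 20.9% of all features and 7.95% of the bright ones, and the same 2 had slides without overlap, against 17.4% of features. The members' variance between slides had a median share of 6.03%, against 17.0% for all features, and their variance between groups 2.67% against 2.92%.

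The pair was Mrps26 and Mrpl1. Mrps26, a mitochondria-specific small-subunit protein, read 4.41, 4.54, 4.81 and 4.75 in controls 1 to 4 and 4.56, 4.78, 4.66 and 4.38 in dtg 1 to 4, so each slide 2 heart exceeded each slide 1 heart. The difference was 0.28 (SE 0.099, adjusted p = 0.145). Mrpl1, which in bacteria forms the stalk through which used tRNA leaves, read -0.31, -0.12, -0.0012 and -0.077 in controls 1 to 4 and -0.20, 0.055, 0.11 and -0.19 in dtg 1 to 4, and differed by 0.23 (SE 0.096, adjusted p = 0.237). Next were Mrpl50, a mitochondria-specific protein, at 0.27 (SE 0.13, adjusted p = 0.317) and Mrpl4, which lines the exit tunnel, at 0.23 (SE 0.11, adjusted p = 0.313). Mrpl32, matured by a mitochondrial protease, went the other way at -0.18 (SE 0.11, adjusted p = 0.446), followed by Mrpl9 at -0.17, Mrps27 at -0.12 and Mrpl10 at -0.12.

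Of the 77 members 53 were higher on slide 2, with a median of 0.039 against -0.026 for all features, of which 45.8% were higher. Among the bright features 66.3% were higher on slide 2, with a median of 0.063. With quantile normalization 28 of the 77 members were higher and the median was -0.028, so the direction of this shift depends on scaling.

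**Figure D3:**
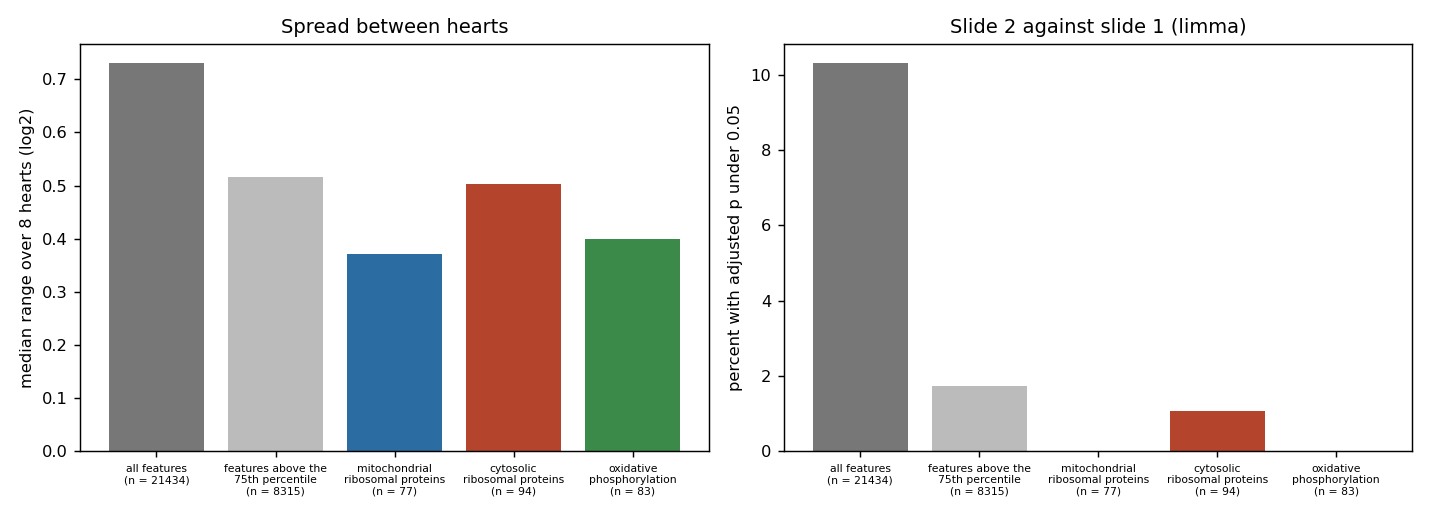
Left, median range of log2 values over the 8 hearts (vertical axis) for all features, features with a mean above the 75th percentile and 3 gene lists. Right, percent of each set with an adjusted p under 0.05 between slides (limma). The members have a median range of 0.37 and 0 of 77 past the slide threshold, and the bright features lie between them and all features in both panels.

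Whether the group difference itself changed with slide was tested as an interaction. None of the 77 members passed at an adjusted p of 0.05, and 1 of all features did (0.00467%). At an unadjusted p of 0.05 the counts were 0 of 77 and 4.56% of features. Between the slides 59 members changed the direction of their group difference, while 8 were higher and 10 lower in dtg hearts on both. The same counts over all features were not made. The members' median difference was 0.036 within slide 1, with 47 of 77 higher, and -0.043 within slide 2, with 28 of 77 higher. Of all features 52.8% were higher within slide 1 (median 0.016) and 56.1% within slide 2 (median 0.038). Cytosolic ribosomal proteins had 84 of 94 higher within slide 1 and 27 within slide 2, and oxidative phosphorylation subunits 67 of 83 and 30. Mrpl45, which helps attach the ribosome to the inner membrane, had an interaction of -0.54 (SE 0.28, adjusted p = 0.804), with differences of 0.20 within slide 1 and -0.34 within slide 2. It read 3.04, 3.06, 3.15 and 3.55 in controls 1 to 4 and 3.097, 3.11, 2.91 and 3.40 in dtg 1 to 4, with control 4 and dtg 4 highest. Mrpl50 (-0.42, SE 0.24), Mrps22 (-0.39, SE 0.24) and Mrpl23 (-0.52, SE 0.38) went the same way, each at an adjusted p of 0.804 in limma's fit. In the other direction were Mrpl35 (0.57, SE 0.38), Mrps11 (0.43, SE 0.28), Mrpl9 (0.38, SE 0.29) and Mrps12, a decoding-site protein (0.23, SE 0.20), with the same adjusted p.

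Most members varied less from heart to heart than most features. The median range over the 8 hearts was 0.37, or 1.29-fold, compared with 0.73 (1.66-fold) for all features, 0.52 for the bright features, 0.50 for cytosolic ribosomal proteins and 0.40 for nuclear oxidative phosphorylation subunits. Of the 77 members, 74 had a range below the median of all features and 60 below that of the bright features. These ranges are a description, and brightness moves with them.

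The narrowest member was Mrpl53, a mitochondria-specific protein, which read 4.51, 4.52, 4.56 and 4.59 in controls 1 to 4 and 4.54, 4.596, 4.52 and 4.52 in dtg 1 to 4, a range of 0.089. Mrpl15 had a range of 0.17, Mrpl49 of 0.18 and Mrps18c of 0.20. The widest was Mrpl2, a core protein beside the peptidyl transferase centre, which read 4.46, 4.67, 4.38 and 5.26 in controls 1 to 4 and 4.598, 4.47, 4.70 and 4.89 in dtg 1 to 4. Control 4 was highest and dtg 4 next, a range of 0.88, or 1.83-fold. Mrpl23, at the exit tunnel, read 4.600, 4.71, 4.63 and 5.33 in controls 1 to 4 and 4.67, 4.62, 4.78 and 5.11 in dtg 1 to 4, with the same pair highest. Mrpl37 read 1.36, 1.36, 1.49 and 1.06 in controls 1 to 4 and 1.53, 1.30, 1.22 and 0.69 in dtg 1 to 4, with dtg 4 lowest and control 4 next. Mrpl35, a core protein, read -0.44, -0.38, -0.51 and -1.14 in controls 1 to 4 and -0.45, -0.41, -0.67 and -0.94 in dtg 1 to 4, with control 4 lowest and dtg 4 next. The 4 widest members thus had control 4 and dtg 4 together at one end of their range, 1 heart of each group and 1 on each slide.

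**Figure D4:**
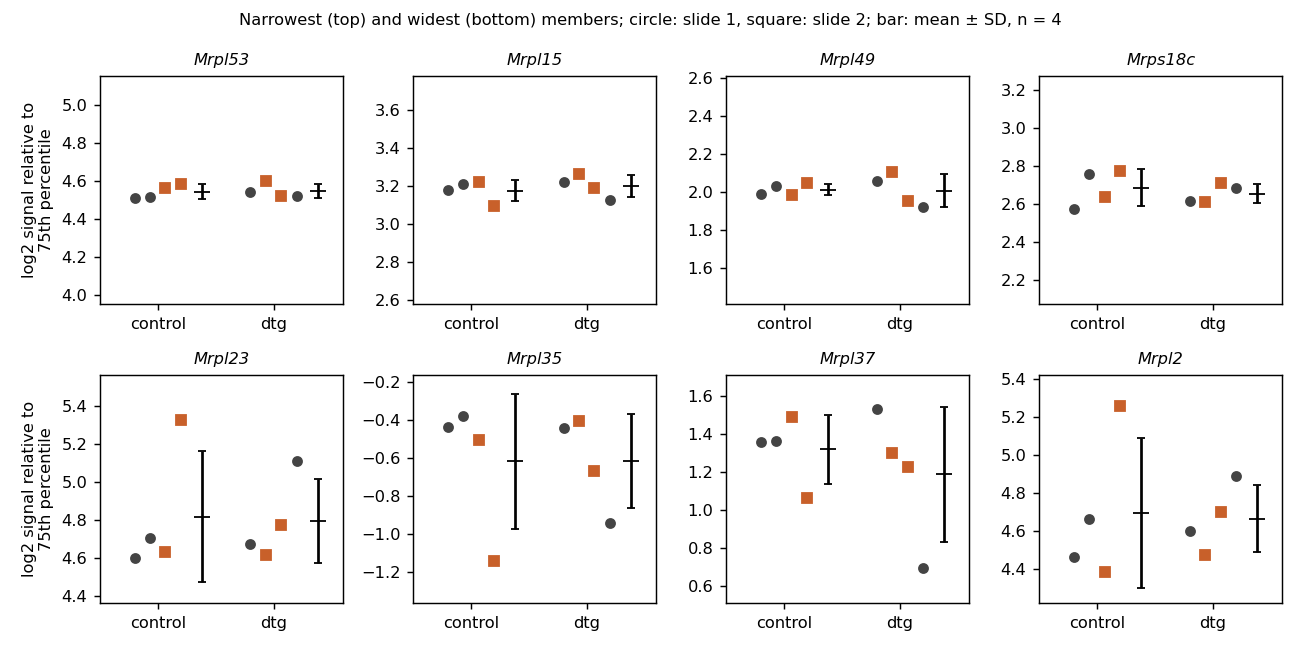
Log2 signal relative to the 75th percentile (vertical axis, each panel spanning 1.2 units) in control and dtg hearts for the 4 narrowest members (top row) and the 4 widest (bottom row). Circles are slide 1 hearts, squares slide 2 hearts, and bars the mean ± SD (n = 4). In the bottom row the rightmost control point (control 4) and the rightmost dtg point (dtg 4) lie together at one end of the range in each panel.

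In single hearts, the median member deviated from its own median over the 8 hearts by -0.074, 0.017, -0.023 and 0.14 in controls 1 to 4 and by -0.017, 0.0096, 0.0098 and 0.056 in dtg 1 to 4. Control 4 was the highest heart for 36 of 77 members, and 26 members there were over 0.2 above and 5 more than 0.2 below their median. The median feature of control 4 deviated by -0.035 and that of dtg 4 by 0.090. Cytosolic ribosomal proteins deviated by 0.22 in control 4 and 0.20 in dtg 4, and oxidative phosphorylation subunits by 0.15 in each. With quantile normalization the members' median in control 4 was 0.00061, with 7 members over 0.2 above and 15 below of it, so the general shift rested on scaling. Bright members tended to be high in these hearts. Across the 77 members, the deviation correlated with mean level with r = 0.52 in control 4 and 0.57 in dtg 4, or 0.35 and 0.44 with quantile normalization, a description over probes that share an array. Over all features the same r was 0.36 in control 4 and -0.19 in dtg 4, and it was 0.43 in control 3 and 0.41 in dtg 2.

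Single members kept their place in these hearts under both scalings. Mrpl23 was 0.64 above its median in control 4 (0.44 with quantile normalization) and 0.42 above in dtg 4 (0.31). Mrpl2 was 0.63 above in control 4 (0.44) and 0.26 above in dtg 4 (0.15). Mrpl35 lay at -0.67 in control 4 (-0.59) and -0.47 in dtg 4 (-0.46), and Mrpl37 at -0.26 (-0.31) and -0.64 (-0.66). Control 4 and dtg 4 also had the highest summed atrial markers, 628.8 and 490.0, the lowest 75th percentiles of signal, 737.6 and 754.6 intensity units against 858.4 to 1027 on the other arrays, and, with dtg 1, the most spots darker than their surroundings (12 and 4). Control 3 followed closely in summed atrial markers, at 467.2. There Mrpl2 lay at -0.25, Mrpl23 at -0.056, Mrpl35 at -0.030 and Mrpl37 at 0.16 from their medians with 75th percentile scaling. The part of atrial tissue, signal level and dark spots in the members' values was not tested. Without control 4 the median group difference of the members was 0.042 and 55 of 77 were higher (56.0% of all features). Without control 1 the median was -0.030 and 22 of 77 were higher (59.6% of all features).

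**Figure D5:**
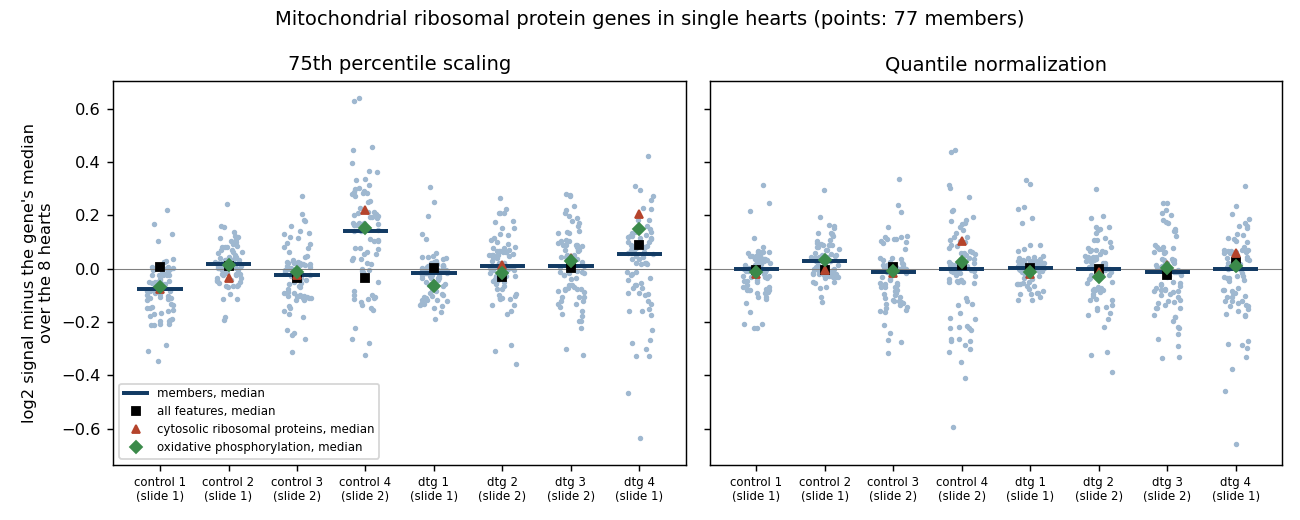
Deviation of each of the 77 members from its own median over the 8 hearts (vertical axis, log2) in each heart (horizontal axis), with 75th percentile scaling on the left and quantile normalization on the right. Points are members, blue lines their median, and symbols the medians of all features, cytosolic ribosomal proteins and oxidative phosphorylation subunits. Control 4 has a members' median of 0.14 on the left and 0.00061 on the right.

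For 21 members a second probe was kept. The group difference had the same sign at both probes for 11 and opposite signs for 10, with gaps of up to 0.21. Gaps were widest for Mrps2 (0.14 and -0.067), Mrpl41 (0.015 and 0.18), Mrpl43 (-0.10 and 0.059) and Mrpl47 (-0.0064 and 0.14). Probes of Mrpl4 ran in opposite directions over the hearts, with r = -0.91 (n = 8). The brighter read 4.84, 4.86, 5.12 and 5.34 in controls 1 to 4 and the other 3.40, 3.25, 3.01 and 2.72, and between slides they differed by 0.23 and -0.25. Both probes of Mrps26 were higher on slide 2, by 0.28 and 0.20. Probes of Mrps7 also ran opposite ways (r = -0.73), and those of Mrpl40 together (r = 0.85).

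Outside the members, only features with a gene symbol, predicted and clone names left out, were ranked by likeness to the members' median. Most alike were Chuk, Mpst, Ppp2r3c, Commd1 and Strip2, with Pearson's r of 0.98 for each over 8 hearts. After quantile normalization r was 0.064, 0.040, 0.028, 0.57 and 0.14. These genes were picked for their r under the first scaling. The members' median itself ran only from -0.013 to 0.028 over the hearts after quantile normalization, so the lower values say little. The source of the likeness was not tested.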

How the data were processed

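RNA of 4 control and 4 dtg hearts was labelled with Cy3 from 100 ng each and hybridised to 1-colour arrays, per the labels' protocols. Spots were quantified by Agilent Feature Extraction (version 10.7.3.1, per the submitters' processing notes), and each spot's processed signal is a linear intensity after local background correction, per the file headers. Precision is limited by the number of arrays. A second table that the authors deposited holds log2 values, which match quantile normalized signals centred on each probe's median. Its column medians were -0.015, -0.017, 0.032 and 0.018 (controls 1 to 4) and 0.0051, 0.0069, -0.032 and -0.0094 (dtg 1 to 4). That scale and centring are read from the numbers alone, and the tool behind it is unknown here.

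Probes were named through RefSeq accessions listed for GRCm38.p6, which matched 26369 of 39429. Outlier and control spots were dropped, replicate spots averaged on the log2 scale, and each array's 75th percentile was subtracted. A probe was kept if well above background on 4 or more of 8 arrays (26118 probes), and the brightest probe stood for a gene, which left 21434 features, 14829 of them with a symbol. Differences were tested with limma 3.58.1 in R 4.3.3 with p-values adjusted by Benjamini-Hochberg across every feature at 0.05, for dtg against control, slide 2 against slide 1 beside the group, and their interaction. The test was checked on simulated data. Same-numbered samples were not treated as pairs (correlation of their deviations 0.54, -0.54, 0.15 and 0.16). These values cannot decide on pairing, since numbers 1 and 3 share a slide and numbers 2 and 4 do not. The highest such value, 0.70, was that of control 3 and dtg 2, both on slide 2.

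The members and lists were chosen with earlier results of these data known. Members named had the smallest unadjusted p in each direction (5 for group, 4 for slide and interaction), the 4 widest and 4 narrowest ranges, a link to cardiomyopathy, the S18 paralogs, the 4 largest probe gaps, or were not kept. Of other lists the 2 genes with the smallest unadjusted p are named. Mrps7, Mrpl40 and Cox7b2's count were picked after their values were seen, as were the bright features and the counts of intervals and of cardiomyopathy genes by setting. Alternatives were background correction, scaling, filter, probe rule, the deposited table, slide or replicate block, single slides, variance trend, array weights and leaving out samples. Normexp, with an offset of 50, used the pixel median, since the mean signal was not used here. Protein sequences were not used here.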

Additional observations from a re-analysis of the deposited data

Results flagged for a closer look

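Values of 1 heart stood far from the other 3 of its group for 3 members, and in each case that heart was control 4. Dixon's test was applied to 68 groups of 4 hearts, those of the named members and of the members' median, and chance alone marks about 1 in 20 such groups, so 3 of 68 is no more than chance gives. The named members include those with the widest ranges, Mrpl23 and Mrpl35 among them, so these 2 were picked for extreme values. Mrpl23, an exit tunnel protein, read 5.33 in control 4 against 4.600 to 4.71 in the other controls. Mrpl35 read -1.14 there against -0.51 to -0.38. Mrps15 read 2.57 against 2.84 to 2.86. Mrpl23 was higher than the other controls and Mrpl35 and Mrps15 lower.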

How the results depend on the processing

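No member passed the test between groups under any alternative that was run, including an adjusted p of 0.1, single slides and array weights. Of 518 recomputed values, 487 kept their direction and side of the threshold. The members' median group difference was -0.083 under median scaling and 0.25 under normexp, or 0.0046 when spots darker than their local background were left out on every array. When samples were left out in turn it lay between -0.030 (without control 1) and 0.042 (without control 4), and it was 0.036 within slide 1 and -0.043 within slide 2. Members higher in dtg hearts were 54.5% as reported, 39.0% under quantile normalization, 37.7% in the deposited table, 5.19% under median scaling and 96.1% under normexp. The shares of all features were 57.4%, 45.5%, 45.3%, 29.3% and 43.3% in the same order. Under normexp the median difference of all features was -0.046. Directions turned for Mrpl54 with array weights (-6.01e-05). Under median scaling Mrps15 (-0.012), Mrps18a (-0.016) and Mrpl54 (-0.026) turned. Under normexp Mrpl20 (0.14), Mrpl43 (0.23), Mrpl46 (0.15) and Mrps14 (0.13) did. Within slide 1 Mrps15 (-0.025), Mrps18a (-0.034) and Mrpl46 (0.0064) did. With slide as a block and control 4, dtg 3 and dtg 4 left out, Mrps5 (0.020) and Mrpl43 (0.029) did.

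Between slides, array weights called 3 of 77 members (Mrpl18, Mrpl32 and Mrpl50), against 4902 of all 21434 features. Normexp without dark spots called 1 of 77 (Mrpl4), against 1700 features in all. The median slide difference was -0.026 in the deposited table, 0.34 under median scaling, where all features moved by 0.27, -0.19 under normexp and -0.028 under quantile normalization, and 0.0091 to 0.051 when samples were left out in turn. Under median scaling Mrpl32 (0.12), Mrpl9 (0.13), Mrpl10 (0.18) and Mrps27 (0.17) turned, and the mean of both probes of Mrpl4 gave -0.0063. Features past the slide threshold were 2210 as reported, 4902 with array weights, 1305 with quantile normalization, 1291 in the deposited table, 1406 with the filter on 8 arrays, 3809 without the 3 samples, 1096 (without control 1) to 2566 (without dtg 3) when samples were left out, and 0 under normexp. With the replicate number as a block, 0 members were called and the median group difference was 0.0017, while the slide count fell from 2210 to 0 and Mrpl10 (0.044) and Mrps27 (0.060) turned. In that fit slides could be compared only within numbers 2 and 4, since both samples numbered 1 lay on slide 1 and both numbered 3 on slide 2. The cause was not tested for any of these changes with setting. The interaction was recomputed only with quantile normalization and with normexp without dark spots, and 0 members were called in both.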
